A study of Rattus norvegicus with 6 samples.

Results

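The miRNAs described are the endothelial miRNA miR-126a and the epithelial miR-200 family in exosomes of rat mesenchymal stem cells (MSCs). They were chosen by name: 7 mature miRNAs (miR-126a-3p, miR-126a-5p, miR-200a-3p, miR-200b-3p, miR-200c-3p, miR-141-3p and miR-429) of the 763 listed, of which 6 had a read and 3 could be tested. Exosomes are small vesicles that cells release. Small RNA was sequenced from exosomes in the supernatant of wild-type RBMSC cells, labelled as mesenchymal stem cells. In 3 libraries the cells had no treatment. In the other 3 the cells had been pretreated with 200 µM nicorandil, an anti-anginal drug that opens potassium channels and donates nitric oxide, for 24 h. RBMSC is a single cell source, and no label tells whether replicate libraries are separate cultures, so p-values measure only the spread between these libraries, which may be technical.

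miR-126 is made in endothelial cells from an intron of Egfl7, a gene of a secreted endothelial protein, and is known for supporting vascular integrity and the response to vascular growth factors. The miR-200 family is known for keeping cells epithelial: it represses ZEB1 and ZEB2, the transcription factors that shut down E-cadherin, and it is low in mesenchymal cells.

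A miRNA recognises its targets mainly through the seed, bases 2 to 8 from its 5′ end. The sequences are shown to separate the arms of miR-126a and the seed groups of the miR-200 family, with the seed in capitals. RefSeq (rat build GRCr8) gave a mature sequence for 4 of the 7 miRNAs. Those of miR-200a-3p, miR-200b-3p and miR-429 are not in that table.
miR-126a-3p: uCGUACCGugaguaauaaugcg
miR-126a-5p: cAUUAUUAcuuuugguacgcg
miR-200c-3p: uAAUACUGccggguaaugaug
miR-141-3p: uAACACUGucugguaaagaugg
The arms of miR-126a lie at chr3:29813219-29813240 (3p) and chr3:29813182-29813202 (5p) on the plus strand, listed by RefSeq under the symbol Mir126b, within Egfl7. miR-200c-3p lies at chr4:159209969-159209989 and miR-141-3p at chr4:159209540-159209561, both on the minus strand, with 346 bases between their hairpins.

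For the other 3 the precursor hairpins are shown, with the seed letters of miR-200c-3p or miR-141-3p in capitals where they occur.
Mir200b: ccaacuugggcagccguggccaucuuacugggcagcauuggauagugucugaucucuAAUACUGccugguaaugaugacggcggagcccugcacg
Mir429: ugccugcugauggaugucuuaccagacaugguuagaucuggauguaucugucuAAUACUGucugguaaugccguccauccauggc
Mir200a: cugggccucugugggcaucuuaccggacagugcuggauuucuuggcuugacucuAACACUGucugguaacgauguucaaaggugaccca
These 3 hairpins form 1 cluster on the minus strand of chromosome 5, at chr5:171931495-171931589 (Mir200b), chr5:171930717-171930805 (Mir200a) and chr5:171929682-171929766 (Mir429), within Ttll10 in the RefSeq annotation. The letters AAUACUG occur in 4 of the 419 rat hairpins of the table (0.955%; Mir200b, Mir200c, Mir429 and Mir145), and so do the letters AACACUG (4, 0.955%), reading the hairpin strand only. Among the 686 listed miRNAs with a mature sequence, CGUACCG is the seed of miR-126a-3p only.

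The seed groups differ by 1 base. Counted from the 5′ end of miR-200c-3p, the substitutions to miR-141-3p are U4C within the seed and C9U, G11U and U17A outside it, over 21 bases. The whole of miR-200c-3p matches the hairpin of miR-200b at 20 of 21 bases, the substitution being G11U. miR-141-3p matches the hairpin of miR-200a at 20 of 22 bases, with A17C and G22U. The number of mismatches allowed in counting is not stated in any source used here, so reads of miR-200b-3p and miR-200c-3p, and of miR-200a-3p and miR-141-3p, could have been split between near-identical miRNAs.

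The libraries were shallow, and depth went with the treatment. The untreated libraries held 2212 to 2338 miRNA reads and the nicorandil libraries 8426 to 16628, a 6.11-fold difference between the groups in all. The deposited values are normalized read counts from which the whole reads could be recovered, and 1 read is worth 1.93 to 2.17 normalized units in an untreated library and 0.375 to 0.771 in a nicorandil one. The detection limit was set at 3 reads, the number that a count of 0 still allows, and was 0.135%, 0.136% and 0.128% in untreated libraries 1 to 3 and 0.0180%, 0.0184% and 0.0356% in nicorandil libraries 1 to 3. Over the pooled libraries that limit is 0.0443% for the untreated and 0.00725% for the nicorandil group. Reads carried no molecular identifiers and may be PCR copies, so all limits and intervals cover counting error only. The mesenchymal markers, led by miR-143-3p, had a read for 14 of 16 names and took 28.4% to 29.3% of untreated and 27.2% to 33.1% of nicorandil reads. Of 13 tested, 4 were higher with nicorandil (miR-100-5p, miR-145-5p, miR-143-3p and miR-21-5p) and none lower (limma), and with library totals as the scale only miR-145-5p passed.

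miR-126a-3p and miR-200b-3p fell in nicorandil exosomes. The former went from 13.0 ± 2.77 to 1.99 ± 0.305 and the latter from 7.55 ± 2.04 to 0.601 ± 0.339 normalized reads (SD, n = 3 per group). miR-200a-3p was also at a lower mean but did not pass the test, and the other 4 had too few reads to be tested. All 7 together had 39 reads in the 3 untreated libraries and 23 in the 3 nicorandil libraries, whose depth was several times greater. The plot of reads by library shows these counts beside the depth.

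**Figure D1:**
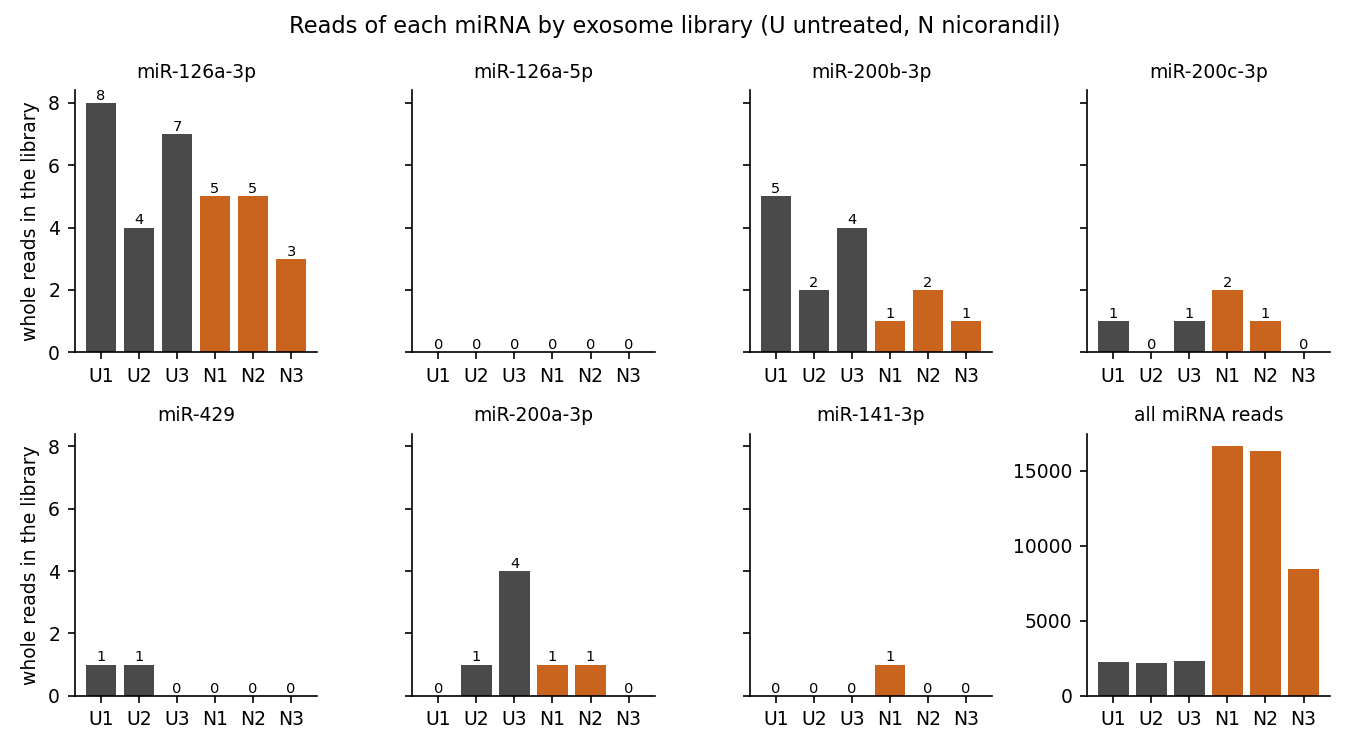
Whole reads (y axis) of each of the 7 miRNAs in untreated libraries U1 to U3 (grey) and nicorandil libraries N1 to N3 (orange), with the number above each bar; the last panel gives all miRNA reads of each library on its own axis. The nicorandil libraries have no more than 5 reads of any of the 7 although they are the deeper ones.

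miR-126a-3p, the guide arm in endothelial cells, had 8, 4 and 7 reads in the untreated libraries and 5, 5 and 3 in the nicorandil libraries. As shares of all miRNA reads these were 0.360%, 0.181% and 0.299% against 0.0301%, 0.0306% and 0.0356%. Every untreated share was above every nicorandil share. The nicorandil shares lay close together, but with 5, 5 and 3 reads behind them this closeness is no measure of precision. The exact (Clopper-Pearson) 95% interval of the lowest untreated share was 0.0493% to 0.462% and that of the highest nicorandil share 0.00734% to 0.104%, so these single libraries overlap in counting error. Pooled over libraries, 19 of 6774 reads against 13 of 41378 gave a share 8.93-fold higher in untreated exosomes (conditional exact 95% interval 4.18 to 19.7). The share of miR-126a reads was 0.280% ± 0.0910 in untreated and 0.0321% ± 0.00305 in nicorandil libraries (SD, n = 3), and the exact permutation test, two-sided, gave p = 0.1, its minimum for 3 against 3 libraries.

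On the normalized scale miR-126a-3p was at 14.9, 9.84 and 14.3 in untreated and 1.74, 1.91 and 2.33 in nicorandil libraries. The groups did not overlap. Its log2 fold change on the log2(value + 1) scale was -2.21 (SE 0.48, limma with Benjamini-Hochberg adjusted p = 0.00316, over 121 miRNAs). That scale understates changes of miRNAs with few reads. In the authors' deposited table its log2 fold change is -2.64 and its unadjusted p 9.15e-06.

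miR-126a-5p, the other arm of the same hairpin, had no read in any of the 6 libraries. Against 32 reads of miR-126a-3p in all, 0 reads allow miR-126a-5p up to 9.38% of the reads of the pair. miR-126b, which lies on the opposite strand and overlaps the miR-126a-5p position by 17 bases, had no read either. The signal of this locus was thus made of a single arm at this depth.

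**Figure D2:**
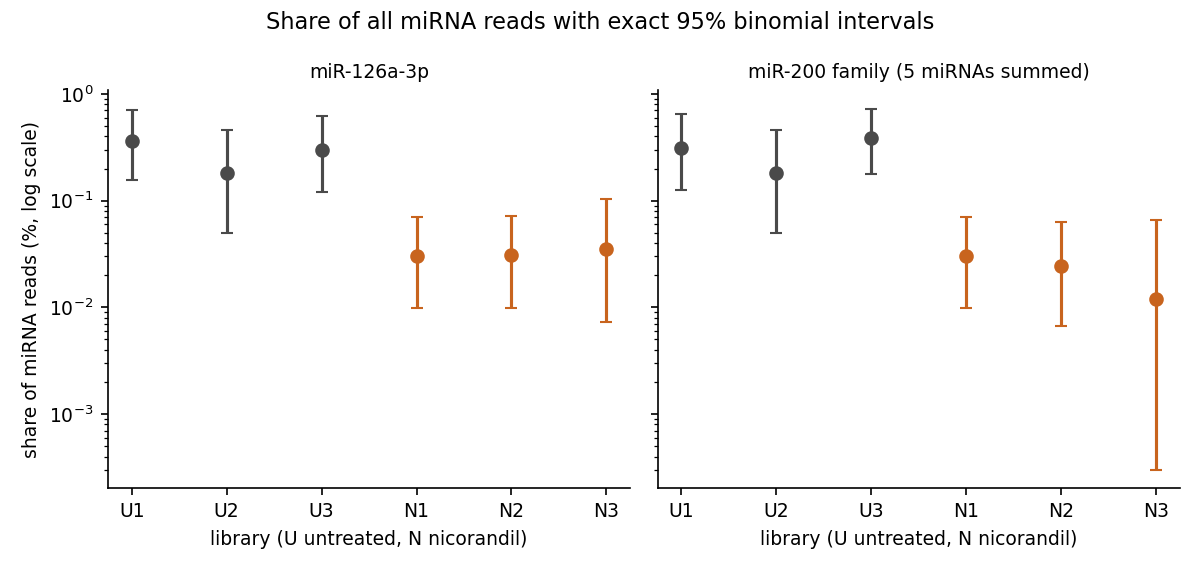
Share of all miRNA reads (y axis, percent on a log scale) of miR-126a-3p and of the 5 miR-200 family miRNAs summed, in untreated (U, grey) and nicorandil (N, orange) libraries; bars are exact 95% binomial intervals. All untreated points lie above all nicorandil points in both panels, and some of the intervals overlap.

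Of the miRNAs with the seed AAUACUG, miR-200b-3p had most reads. It had 5, 2 and 4 reads in untreated and 1, 2 and 1 in nicorandil libraries, which is 0.225%, 0.0904% and 0.171% of the reads against 0.00601%, 0.0123% and 0.0119%. The normalized values were 9.17, 5.26 and 8.21 in untreated and 0.211, 0.823 and 0.769 in nicorandil exosomes. The groups did not overlap in either measure.

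Its log2 fold change was -2.41 (SE 0.60, limma adjusted p = 0.00860). The pooled share, from 11 and 4 reads, was 16.8-fold higher in untreated exosomes, with a wide conditional exact 95% interval of 4.98 to 72.3. In the authors' deposited table it has a log2 fold change of -3.42 and an unadjusted p of 0.000216.

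miR-200c-3p, encoded in the chromosome 4 cluster, had 1, 0 and 1 reads in untreated and 2, 1 and 0 in nicorandil libraries. The groups overlapped. The pooled share was 4.07-fold higher in untreated exosomes, with a conditional exact 95% interval of 0.340 to 35.5 that includes no difference. A difference of miR-200c-3p was not detectable at this depth.

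miR-429, the third member of the chromosome 5 cluster, had 1, 1 and 0 reads in untreated libraries and none in the nicorandil libraries. Both groups were under the limit of 3 reads, so no fold is given. The authors' deposited table lists a log2 fold change of -3.96 for it, with an unadjusted p of 0.275.

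Of the seed AACACUG, miR-200a-3p had 0, 1 and 4 reads in untreated and 1, 1 and 0 in nicorandil libraries. The third untreated library held 4 of the 5 untreated reads, and by reads or shares the groups overlapped. The normalized values were 0.454, 2.60 and 6.88 against 0.349, 0.381 and 0, which do not overlap, but the lowest untreated value, 0.454, stands for a library without a read. The log2 fold change was -1.49 (SE 0.74) and did not pass (limma adjusted p = 0.203). Without the third untreated library it was -0.90 (adjusted p = 0.489).

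miR-141-3p, its partner on chromosome 4, had 1 read in nicorandil library 1 and none elsewhere. It is the only one of the 7 whose deposited log2 fold change is positive, at 1.37 with an unadjusted p of 1 in the authors' deposited table. That value rests on 1 read.

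Summed over the family, the untreated libraries had 7, 4 and 9 miR-200 reads and the nicorandil libraries 5, 4 and 1. The shares were 0.315%, 0.181% and 0.385% against 0.0301%, 0.0245% and 0.0119%, without overlap. The pooled share was 12.2-fold higher in untreated exosomes (conditional exact 95% interval 5.46 to 29.2). By seed, the AAUACUG group went from 15 to 7 reads and the AACACUG group from 5 to 3, with pooled share ratios of 13.1 (5.02 to 37.9) and 10.2 (1.98 to 65.6), so the seed groups were not distinguishable.

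By genomic origin, the chromosome 5 cluster held 18 of the 20 family reads in untreated exosomes (90.0%, exact 95% interval 68.3% to 98.8%) and 6 of 10 in nicorandil exosomes (exact 95% interval 26.2% to 87.8%). These intervals overlap. The chromosome 4 cluster had 2 and 4 reads. None of the 4 listed 5p arms of the family had a read, against 30 reads of the listed family members.

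At the pooled untreated share, 46.6, 45.8 and 23.6 reads of miR-126a-3p would be expected in nicorandil libraries 1 to 3, where 5, 5 and 3 were found. For the miR-200 family 49.1, 48.2 and 24.9 would be expected, against 5, 4 and 1. For miR-143-3p, the most abundant mesenchymal miRNA, 3748, 3680 and 1899 would be expected, and 4267, 4196 and 1764 were found. The reads of miR-143-3p thus went up with depth, while the deeper libraries held no more reads of miR-126a-3p or the miR-200 family in all than the shallower ones.

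**Figure D3:**
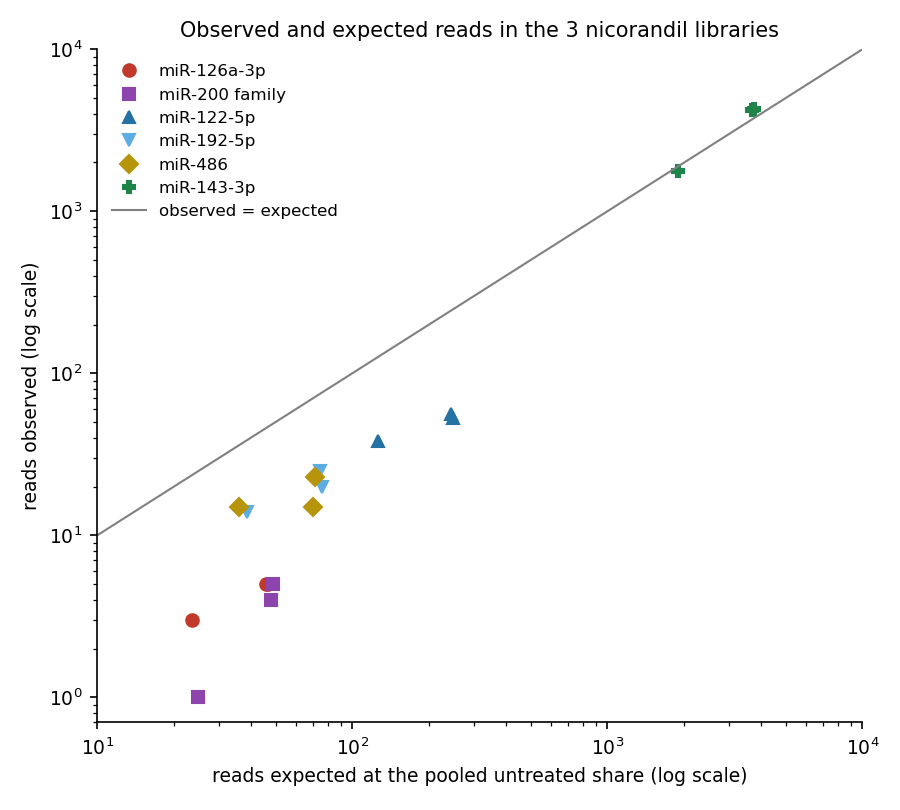
Reads observed in each of the 3 nicorandil libraries (y axis, log scale) against the reads expected there at the pooled untreated share (x axis, log scale), with 3 points per miRNA or group and the line of equality. Of those plotted, miR-143-3p lies by the line, miR-122-5p, miR-486 and miR-192-5p below it, and miR-126a-3p and the miR-200 family farthest below. Not plotted are miR-10a-5p and miR-194-5p, which fell short by larger pooled folds. Their share ratios were 16.8 and 13.7, against 8.93 for miR-126a-3p and 12.2 for the miR-200 family, with overlapping intervals. Over the nicorandil libraries miR-10a-5p and miR-194-5p had 20 and 4 reads, with 336 and 55.0 expected.

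Fewer reads in all in the nicorandil than in the untreated libraries were found for 6 of the 121 tested miRNAs (4.96%). These were miR-126a-3p, miR-200b-3p, miR-200a-3p, miR-10a-5p, miR-194-5p and miR-30e-5p. Among the 250 miRNAs with a read there were 13 (5.20%), of which miR-429 is the only other member of the group described. The members were chosen with results of these data known, so no test was made of this count. Since depth and treatment separate the same libraries, they cannot be told apart as sources of the difference.

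Of the 3 tested miRNAs 2 were lower and none higher, where 9 of all 121 tested (7.44%) were lower and 26 (21.5%) differed in either direction (limma, adjusted p under 0.05). Normalized values below all untreated ones in all nicorandil libraries were found for all 3, against 13 of 121 (10.7%), with the reservation given for miR-200a-3p. miR-200a-3p and miR-200b-3p reached the required mean of 1 normalized read only through the untreated group (means of 3.31 and 7.55, against 0.243 and 0.601 with nicorandil), while miR-200c-3p, miR-141-3p, miR-429 and miR-126a-5p did not reach it. Counts over the 3 tested are therefore partly fixed by that filter, and nothing is drawn from them. In order from the most negative, miR-200b-3p was number 2, miR-126a-3p number 4 and miR-200a-3p number 8 of the 121.

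**Figure D4:**
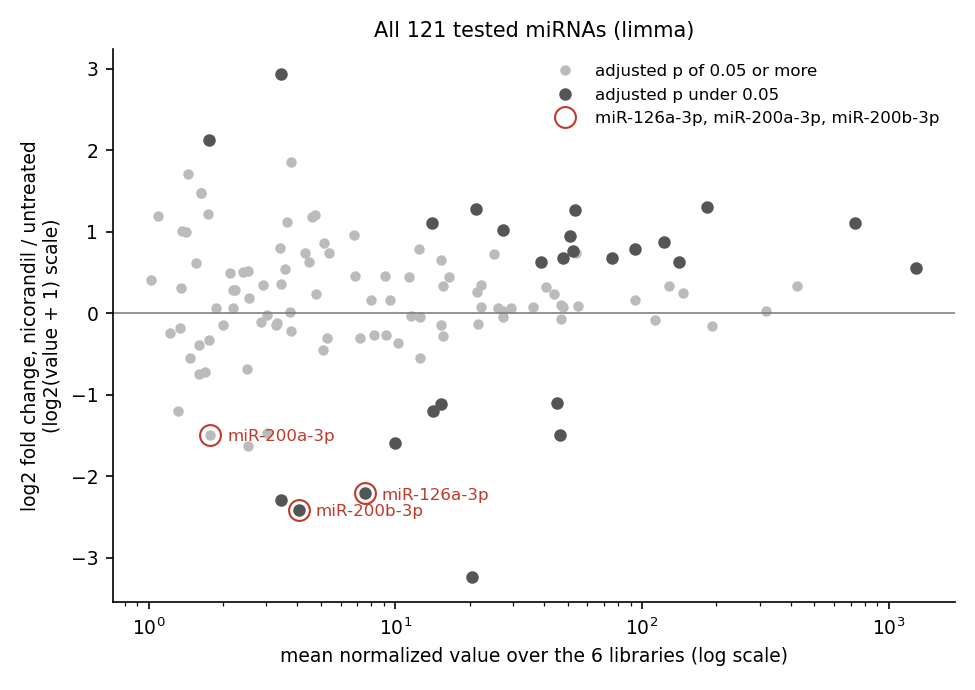
Log2 fold change of nicorandil over untreated exosomes on the log2(value + 1) scale (y axis) against the mean normalized value (x axis, log scale) for the 121 tested miRNAs; dark points passed an adjusted p of 0.05 and circles mark the 3 tested members. miR-126a-3p and miR-200b-3p are at -2.21 and -2.41, and miR-200a-3p, which did not pass, is at -1.49.

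The tested miRNA whose centred profile over the 6 libraries was closest to that of miR-126a-3p was miR-200b-3p, with a mean absolute difference of 0.15 on the log2 scale against a median of 1.23 over all tested. miR-122-5p (0.40) and miR-30e-5p (0.42) came next. For miR-200b-3p the closest were miR-126a-3p (0.15), miR-10a-5p (0.48) and miR-122-5p (0.49). miR-200a-3p, from the same cluster as miR-200b-3p, was number 10 by this measure (0.67). This likeness is a description that contains the shared difference between the groups and in depth.

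Ratios between miRNAs of the same library do not depend on the scaling, and on depth only through the 0.5 read added to each count; 5 were computed. The log2 ratio of miR-126a to the hepatocyte miRNA miR-122-5p was -1.34, -2.94 and -2.63 in untreated and -3.28, -3.36 and -3.46 in nicorandil libraries. miR-122-5p itself fell by 1.49 on the log2 scale (SE 0.27, limma adjusted p = 0.000718). The ratio was lower in all 3 nicorandil libraries, by a mean of -1.06 (two-sided exact permutation p = 0.1, the smallest possible, and 0.125 adjusted over the 5). Pooled, miR-126a had 18.8 reads for every 100 of miR-122-5p in untreated and 8.84 in nicorandil exosomes.

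The log2 ratio of the miR-200 family to miR-122-5p was -1.52, -2.94 and -2.29 in untreated and -3.28, -3.65 and -4.68 in nicorandil libraries, also without overlap. Against miR-143-3p the mean log2 ratio of miR-126a was -6.27 ± 0.50 in untreated and -9.38 ± 0.35 in nicorandil libraries (SD, n = 3; two-sided exact permutation p = 0.1, adjusted 0.125). For the miR-200 family to miR-143-3p it was -6.22 ± 0.55 and -9.89 ± 0.30. Between each other, miR-126a and the miR-200 family stood at log2 ratios of 0.18, 0.00 and -0.34 in untreated and 0.00, 0.29 and 1.22 in nicorandil libraries. These overlap, so a different change of the endothelial and the epithelial miRNAs was not detectable.

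**Figure D5:**
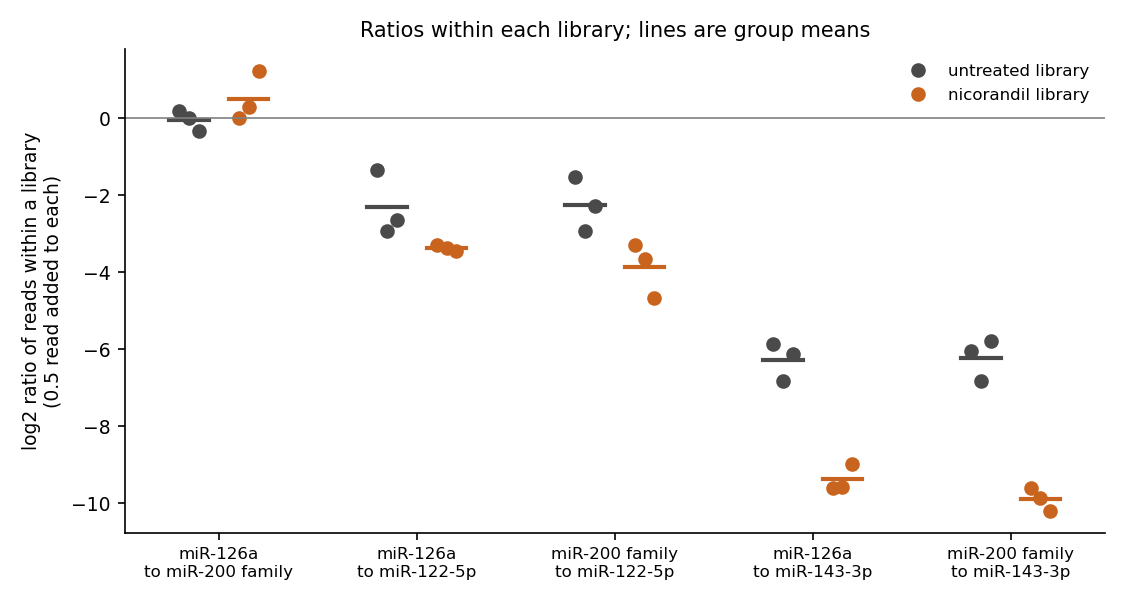
Log2 ratio of reads within each library (y axis, 0.5 read added to each count) for 5 pairs, with untreated libraries in grey, nicorandil libraries in orange and lines at the group means. The ratio of miR-126a to the miR-200 family overlaps between the groups, and the other 4 ratios are lower in every nicorandil library.

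As a sum, the other listed epithelial miRNAs, which include miR-34 miRNAs, did not separate in this way. Of 12 listed names (among them miR-205, miR-203a-3p, miR-375-3p and the miR-183, miR-96 and miR-182 cluster) 7 had a read, with 8 reads in untreated and 28 in nicorandil libraries. Their summed share was 0.0452% to 0.225% in untreated and 0.0593% to 0.0722% in nicorandil libraries, and the ranges overlapped. miR-205 had 0 and 1 reads, and miR-203a-3p, a miRNA of stratified epithelium, had none. Only miR-34b-3p was tested, at -0.11 (SE 0.68, limma adjusted p = 0.927), with 5 and 17 reads, and miR-34a-5p had 0 and 4 reads. Most reads of the list were thus of miR-34b-3p, and the overlap of the sum rests mainly on it. miR-375-3p and miR-182 had 1 and 2 reads each and miR-183-5p 1 and 1, too few to be compared. The list was not summed without the miR-34 miRNAs, so no contrast between the miR-200 family and other epithelial miRNAs is drawn from it.

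Of 18 angiogenesis-linked miRNAs, a list chosen for a link to vessel growth and not for any cell type, 12 were tested. In that list 1 fell (miR-10a-5p, log2 fold change -3.24), 3 rose (miR-23a-3p at 1.11, miR-27a-3p at 0.63 and miR-10b-5p at 0.68) and 8 did not pass, with a median of 0.63 against 0.23 over all tested (limma, adjusted p under 0.05). None of these 3 rises passed with library totals as the scale (adjusted p = 0.326, 0.655 and 0.474). On that scale miR-24-3p, the most abundant of the list, was lower at -0.43 (limma adjusted p = 0.01995), against 0.03 (adjusted p = 0.897) on the deposited scale.

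Some markers of other cell types were also lower in nicorandil exosomes. Liver and gut markers had a read for 4 of 6 listed names. All 3 tested were lower, where 9 of all 121 tested (7.44%) were. Their summed share was 1.44% to 2.61% in untreated and 0.475% to 0.617% in nicorandil libraries. Besides miR-122-5p the lower ones were miR-192-5p at -1.11 (limma adjusted p = 0.0252) and miR-194-5p at -2.30 (adjusted p = 0.0188). With 9 and 4 reads, miR-194-5p fell about as much as miR-126a-3p (-2.21) and miR-200b-3p (-2.41). All 4 nicorandil reads of miR-194-5p were in library 1. It reached the required mean of 1 only through the untreated group (6.22, against 0.682 with nicorandil), so the count is partly fixed by that filter. Blood cell markers had a read for 7 of 10 listed names, 1 of 3 tested was lower (miR-486, log2 fold change -1.20, limma adjusted p = 0.0238), and their share was 0.678% to 0.854% against 0.276% to 0.415%. miR-451-5p, at -0.27 (limma adjusted p = 0.835), and miR-142-5p, at 0.36 (adjusted p = 0.860), did not pass. Among blood markers miR-150-5p had no read and miR-144-3p had 1. The part of other cells or of carried-over RNA in the miR-126a and miR-200 reads was not tested, and in bulk exosome RNA fewer vesicles of a kind and less RNA per vesicle cannot be told apart.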

How the data were processed

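The authors deposited 1 table of 763 miRNAs for 6 exosome libraries, with 1 normalized read-count signal per library and, per the file headers, the authors' own log2 fold change and p-value. FastQC, Bowtie and edgeR were used, per the submitters' processing notes. No source used here states versions, genome build, miRNA annotation or allowed mismatches. The deposited signal has the form of edgeR pseudo-counts, in which the reads of each library are adjusted to 1 common library size. Inverting that adjustment gave whole reads for 100% of the miRNAs (relative tolerance 1e-05), and recomputing the values from those reads gave the deposited ones within 4.8e-07, at a dispersion of 0.0272. Reads, shares and ratios come from the recovered reads.

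Values listed at a placeholder near 0 were set to 0. limma 3.58.1 (R 4.3.3) with an intensity trend was applied to log2(value + 1). A mean of at least 1 over the libraries was required, which 121 miRNAs reached, with Benjamini-Hochberg adjustment over all of them. A mean filter can keep a miRNA through the group in which it is high. Groups follow the sample titles, and the columns follow the sample descriptions. Alternatives were other pseudocounts, filters and scalings, edgeR 4.0.16, DESeq2 1.42.0, a replicate block and each library left out. Named were all members, other arms or copies with a read, the 3 closest profiles, and in each comparison list the members past the threshold or otherwise the 2 most abundant. The members and lists were chosen with earlier results of these data known. The labels give no batch.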

Additional observations from a re-analysis of the deposited data

How the results depend on the processing

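The calls of miR-126a-3p and miR-200b-3p held in all alternatives that could test them: 16 for miR-126a-3p (log2 fold change -2.92 to -0.93, adjusted p 0.000766 to 0.0264) and 15 for miR-200b-3p (-3.82 to -0.72, adjusted p 0.00847 to 0.0420). The smallest changes came with a pseudocount of 10. miR-200a-3p passed in none of its 15 (-3.77 to -0.35, adjusted p 0.0866 to 0.489). No member was kept by the filterByExpr function of edgeR, and only miR-126a-3p reached a mean value of at least 5. The members not tested have no alternative values. Against 26 called miRNAs (limma) there were 15 with library totals, 15 with median-of-ratios scaling and 14 with DESeq2, which gave no adjusted p for 9; leaving out 1 library gave 11 to 21, the lowest without nicorandil replicate 2. The totals were 17 higher and 9 lower in limma, 4 and 11 with library totals, 6 and 9 with median-of-ratios and 5 and 9 with DESeq2; these are counts under each setting, not shared miRNAs. These scalings moved the median of all tested miRNAs by -0.35 and -0.13 on the log2 scale. The cause was not tested. Without the 10 most abundant miRNAs in the denominator, the difference in share was -0.661 percentage points for miR-126a (-0.248 with all miRNA reads) and -0.727 for the miR-200 family (-0.271), as a smaller denominator makes both larger. With the replicate number as a block the log2 fold changes were the same, with adjusted p-values of 0.00453 (miR-126a-3p), 0.0136 (miR-200b-3p) and 0.282 (miR-200a-3p) and 26 called miRNAs. The deviations of same-numbered libraries had correlations of 0.01, 0.04 and -0.03. Counting noise in the shallow untreated libraries could hide a pairing, so these values cannot decide whether the libraries were paired. The block changed no call of a member. The reads of untreated libraries 1 and 2 differed by no more than counting error (chi-square per degree of freedom 0.87, p = 0.735). The chi-square per degree of freedom was 1.20 between untreated libraries 1 and 3 (p = 0.154) and 1.46 between 2 and 3 (p = 0.0145). Nicorandil libraries differed by more than counting error, at 2.393 between 1 and 2 (chi-square p = 3.33e-13). Nicorandil library 3 differed most, at 5.175 from 1 and 5.404 from 2. The pooled intervals leave this spread out. Since the same difference raises a chi-square more at greater depth, these values do not compare the spread of the untreated and nicorandil groups. With untreated libraries 1 and 2 averaged, an alternative chosen after seeing the data, the log2 fold changes were -2.26, -2.47 and -1.86 for miR-126a-3p, miR-200b-3p and miR-200a-3p (adjusted p = 0.00882, 0.0233 and 0.162). Depth limits all 7: each library held at most 8 reads of any of them.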
